A study of Homo sapiens with 9 samples.

Results

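The genes described here are 30 targets of the transcription factor p53, taken without its best known targets, the cell cycle inhibitor CDKN1A and the ubiquitin ligase MDM2. Of the 30, 28 had a probe with a gene name, out of 18852 genes measured, and BTG2 and FDXR were not analysed here. A gene was matched by its current or an older symbol, and where it had several probes the one with the highest mean log2 value stood for it. Expression was measured with Illumina bead arrays, hybridized with biotinylated cRNA, in 3 human ovarian carcinoma lines of one origin with 3 arrays each. The parental line, IGROV-1, is cisplatin-sensitive. Its variant IGROV-1/Pt1, called Pt1 here, was selected with cisplatin, a platinum compound that forms DNA crosslinks, and resists it. The labels describe the other variant, IGROV-1/OHP or OHP, as oxaliplatin-resistant, oxaliplatin being a related compound. The series description instead names cisplatin for OHP as well, so the drug behind that line is uncertain. Cells of all 3 lines were frozen during exponential growth, no drug at harvest is named, and each resistant variant is 1 line.

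p53 is held low in unstressed cells because MDM2 marks it for breakdown. DNA damage frees it, and it then binds paired half-sites in DNA and switches on genes that halt the cell cycle, repair DNA, limit oxidants or start apoptosis. Some of its targets act back on it, so that the response ends when the damage is gone. Platinum drugs form the kind of DNA lesion that sets this response in motion.

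Stretches close to the start that matched the p53 half-site consensus are shown because p53 binds such half-sites in pairs. RefSeq promoter windows of build GRCh38.p14, from 250 bases before to 50 after a start, were used, 30 of them from 22 of the 28 genes. The windows were searched for the p53 half-site consensus, a pattern of 10 bases that reads the same on both strands. It was present in 5 windows of 5 genes, and in 6.63% of the 35116 windows of all genes. A full site, made of 2 half-sites with at most 13 bases between them, was present in 10 of the 35116 windows (0.0285%), and 1 of these belonged to DDB2. No window was searched for TNFRSF10B, TNFRSF10C, TP53INP1, RRM2B, GADD45A and PHLDA3. Windows on 1 chromosome were left out for the 28 genes, but not in the counts over all genes. Capitals mark the matched half-sites. For FAS and PLK2, which differed between the lines, the 250 bases before the start are given, at chr10:88991181-88991430 on the plus strand (the last of 3 FAS starts) and chr5:58460087-58460336 on the minus strand. For the DNA repair gene DDB2 the full site is given, at chr11:47214979-47214999 on the plus strand. The matches of AEN (chr15:88621296-88621325, plus strand) and SESN1 (chr6:109009018-109009047, minus strand) are given with the bases around them. A match is a description of the letters, not a measured binding site.
FAS: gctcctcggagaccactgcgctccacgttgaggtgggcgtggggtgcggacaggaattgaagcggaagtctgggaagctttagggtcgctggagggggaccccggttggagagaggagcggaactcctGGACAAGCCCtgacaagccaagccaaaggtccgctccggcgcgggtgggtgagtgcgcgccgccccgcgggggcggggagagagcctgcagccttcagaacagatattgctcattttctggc
PLK2: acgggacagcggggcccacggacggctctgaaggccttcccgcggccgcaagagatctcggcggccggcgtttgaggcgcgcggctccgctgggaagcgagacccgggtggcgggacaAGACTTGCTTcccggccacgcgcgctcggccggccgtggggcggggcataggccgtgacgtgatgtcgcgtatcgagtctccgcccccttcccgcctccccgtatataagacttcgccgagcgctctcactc
DDB2: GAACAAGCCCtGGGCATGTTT
AEN: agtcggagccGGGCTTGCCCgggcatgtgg
SESN1: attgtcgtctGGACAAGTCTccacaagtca

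The values are intensities on a linear scale, already normalized between arrays, with a median of 228.2 to 228.34 on every array. Olfactory receptor genes, silent in most tissues, gave a background ceiling of 302.19 intensity units, a high percentile of their 431 probes. Between 10300 and 10516 genes lay above it on an array. Of the 28 genes, 23 lay above it on all 3 arrays of at least 1 line, while the BH3-only gene BBC3, the kinase PLK3, SPATA18 and the receptor EDA2R stayed at or under it on all 9 arrays. Of 9 ovarian epithelial markers, PAX8, FOLR1 and KRT7 were above the ceiling on all 9 arrays, MUC16, KRT8 and KRT18 on 8, EPCAM on 6, CDH1 on 5 and WT1 on none. Of 3 leucocyte markers CD14 was above it on 3 arrays and PTPRC and CD3E on none, and of 4 fibroblast markers COL1A1 on 2 and COL3A1, DCN and LUM on none. Of 4 endothelial markers VWF and PECAM1 were above it on all 9, CDH5 on 3 and KDR on none. OHP array 2 stood apart. Across genes, which are not independent replicates, its correlation was 0.942 with OHP array 1 and 0.926 with OHP array 3, below the 0.956 with parental array 2, against 0.99 between OHP arrays 1 and 3. Of the 28 genes, 10 had their highest or lowest value of the 9 arrays there, as did 51.5% of all genes. For those of the 28 genes that passed in a comparison with OHP, the value without this array is therefore also given.

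Changes are log2 fold changes with their SE from 1 limma fit of all 9 arrays (n = 3 arrays in each line), on intensities corrected for background. A gene passed the test where its p, adjusted by Benjamini and Hochberg for all 18852 genes, was under 0.05, and every adjusted p below comes from limma. In Pt1, BAX, FAS and GDF15 fell and TP53I3 rose, 4 of 28, where 9.88% of all genes passed. In OHP, BAX, FAS, TP53I3 and TP53INP1 fell and PLK2 rose, 5 of 28, where 5.41% of all genes passed. Between OHP and Pt1, FAS, TP53I3 and TP53INP1 were lower and GDF15 was higher in OHP, 4 of 28, where 7.59% of all genes passed. The F-test over the 3 lines was passed by these 6 genes of 28 and by 12.3% of all genes. The median log2 fold change of the 28 was -0.08 in Pt1 and -0.16 in OHP against parental cells, beside -0.02 and -0.01 over all genes. With the fit limited to genes above the ceiling on all 3 arrays of a line, 4, 5 and 4 of 23 passed. In these 3 comparisons 17.3%, 9.3% and 13.5% of all such genes passed, so 4 of 23 in Pt1 was near their share. The median of the 23 was 0.002 in Pt1 and -0.17 in OHP against parental cells.

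Without OHP array 2 more genes passed throughout. In Pt1 against parental 13 of 28 then passed, 5 higher and 8 lower, where 25.9% of all genes passed (11.8% higher, 14.1% lower). The log2 fold changes of this comparison hold no OHP array and stayed the same, while their SE, taken over all arrays in the fit, changed. In OHP against parental 10 passed, 3 higher and 7 lower, where 16.7% of all genes passed (7% higher, 9.7% lower). Between OHP and Pt1 6 passed, 2 higher and 4 lower in OHP, where 12.2% of all genes did so (5.63% higher, 6.55% lower). The 3 Pt1 arrays did not overlap the 3 parental arrays for 13 of the 28 genes, and for 39.4% of all genes. OHP did not overlap parental for 8 of 28 (18.6% of all genes) nor Pt1 for 9 of 28 (27.8% of all genes). With OHP arrays 1 and 3 alone these became 14 of 28 (40% of all genes) and 13 of 28 (42.2% of all genes). Both resistant lines were compared with the same 3 parental arrays.

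**Figure D1:**
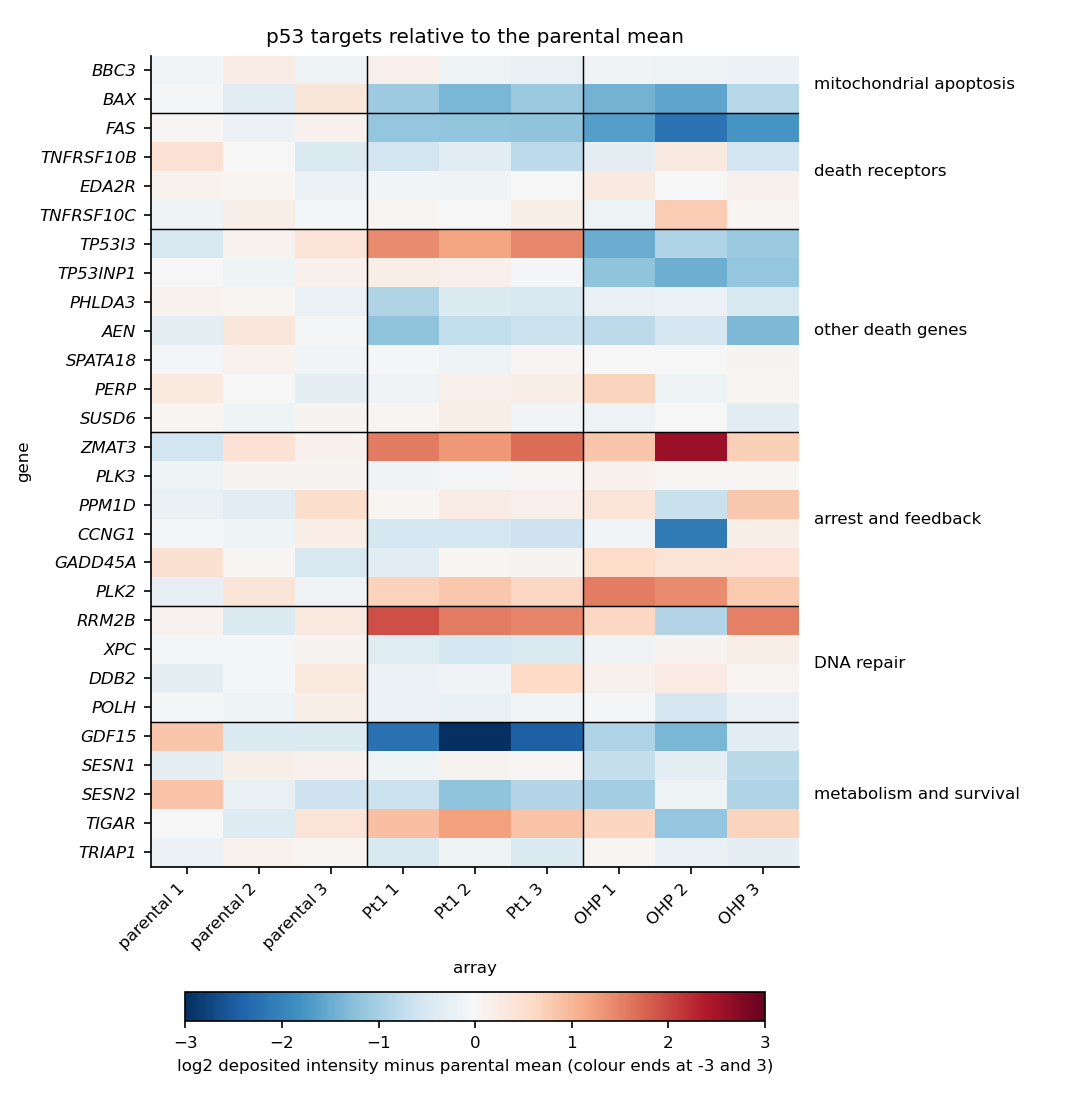
Heat map of log2 deposited intensity minus the mean of the parental arrays, with 28 p53 targets in rows, grouped by role, and the 9 arrays in columns. FAS and BAX are blue on all 6 arrays of the resistant lines, TP53I3 is red in Pt1 and blue in OHP, and CCNG1, RRM2B and TIGAR are far lower on OHP array 2 than on the other OHP arrays.

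Among the genes that open the mitochondria in apoptosis, BAX was lower in both resistant lines. BAX forms pores in the outer mitochondrial membrane. On arrays 1 to 3 it read 6262, 5044 and 8196 intensity units in parental cells, 2992, 2479.5 and 2966 in Pt1, and 2382, 2122 and 3547 in OHP. Every array of a resistant line was below every parental array, and the resistant lines overlapped each other. BAX fell by 1.21 ± 0.25 in Pt1 (adjusted p = 0.0125) and by 1.32 ± 0.25 in OHP (adjusted p = 0.0133), and OHP differed from Pt1 by -0.10 ± 0.25 (adjusted p = 0.858). The OHP value without array 2 was -1.16 ± 0.23 (adjusted p = 0.00383). In a bulk extract, fewer cells with a transcript and less of it per cell cannot be told apart. The call in Pt1 ended without parental array 3 or Pt1 array 2 (adjusted p up to 0.0653), and that in OHP without parental array 1 or 3 or OHP array 1 (up to 0.0615) or with only the 2 lines in the fit (0.0707). A second BAX probe, above the ceiling on all parental and Pt1 arrays and 2 OHP arrays, differed by -0.52 in Pt1 and -0.80 in OHP, and the remaining one lay under it. With the mean of its 3 probes BAX stood at -0.51 (adjusted p = 0.209) and -0.73 (adjusted p = 0.105). BBC3, known as PUMA, which frees BAX from its inhibitors, read 220.3 to 301 units over the 9 arrays, at background in all lines.

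FAS fell furthest in OHP among the death receptors and also fell in Pt1. FAS is the receptor through which FAS ligand starts apoptosis. Its arrays 1 to 3 read 1002, 869.6 and 1068 units in parental cells, 435, 427 and 425 in Pt1, and 309.8, 210.0 and 285 in OHP. The 3 lines did not overlap, in the order parental, Pt1, OHP. Only 1 OHP array lay above the background ceiling, so the size of the FAS differences in OHP is limited by background. FAS fell by 1.40 ± 0.23 in Pt1 (adjusted p = 0.00413) and fell by 2.41 ± 0.23 in OHP (adjusted p = 0.000244). It was lower in OHP than in Pt1, at -1.002 ± 0.23 (adjusted p = 0.0285). Without OHP array 2, the array with the lowest FAS value, the last difference was -0.73 ± 0.17 (adjusted p = 0.0109). It did not pass without parental array 1 or any 1 of the Pt1 arrays (adjusted p up to 0.107), nor with only the 2 lines in the fit (0.0874). The falls against parental cells passed under all 18 alternatives tried, and that in OHP was -2.13 ± 0.17 without OHP array 2 (adjusted p = 1.51e-06). Over the alternatives the OHP value ran from -2.70 to -1.88 against parental cells and from -1.20 to -0.69 against Pt1.

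The other receptors did not pass in any comparison. TNFRSF10B, a death receptor for the ligand TRAIL, read 17437, 13019 and 9538 units in parental cells, 8665, 10203 and 7547 in Pt1, and 10705, 15572 and 8759 in OHP. Its lines overlapped, and it stood at -0.57 ± 0.28 in Pt1 (adjusted p = 0.271) and -0.19 ± 0.28 in OHP (adjusted p = 0.841). A second probe above the ceiling stood at -0.94 in Pt1 and -0.08 in OHP, and the remaining one lay near the ceiling. TNFRSF10C, a decoy receptor that binds TRAIL without a death signal, read 303 to 383 units apart from OHP array 2, at 568. The ectodysplasin receptor EDA2R stayed at background, at 172 to 232 units.

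TP53I3 differed in opposite directions, higher in Pt1 and lower in OHP than in parental cells. TP53I3, also called PIG3, is an oxidoreductase linked to the oxidants formed in p53-driven apoptosis. Its arrays 1 to 3 read 512, 765 and 924 units in parental cells, 1909.7, 1619 and 1946 in Pt1, and 256, 372 and 328 in OHP. The lines did not overlap, and OHP array 1 lay under the background ceiling. TP53I3 rose by 1.49 ± 0.28 in Pt1 (adjusted p = 0.00874), fell by 1.499 ± 0.28 in OHP (adjusted p = 0.0136) and was lower in OHP than in Pt1 by a log2 difference of -2.99 ± 0.28 (adjusted p = 0.000146). The difference between OHP and Pt1 passed under all 18 alternatives and was -3.16 ± 0.26 without OHP array 2. Against parental cells the OHP value without that array was -1.67 ± 0.26 (adjusted p = 0.000651). The fall in OHP did not pass without parental array 2 or 3 or OHP array 1 (adjusted p up to 0.0637), nor with only the 2 lines in the fit (0.0741). Its other probe was at background in parental cells and Pt1, and with the mean of both probes the rise in Pt1 was 0.69 (adjusted p = 0.0617). With that mean OHP stood at -0.83 against parental cells and -1.52 against Pt1, and both calls held.

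TP53INP1 was lower in OHP alone of the resistant lines. TP53INP1 is a stress protein that promotes phosphorylation of p53 and autophagy. It read 629.6, 569.6 and 684 units on parental arrays 1 to 3, 714, 694 and 611 on the Pt1 arrays, and 273, 228 and 281 on the OHP arrays. All OHP arrays were at background, whereas Pt1 overlapped parental cells. TP53INP1 was at least 2.07-fold lower in OHP than in parental cells (adjusted p = 0.00046) and at least 2.22-fold lower than in Pt1 (adjusted p = 0.000209). It stood at 0.12 ± 0.18 in Pt1 against parental (adjusted p = 0.785). Its second probe was likewise at background on all 3 OHP arrays and above the ceiling on all other arrays. Both calls passed under all 18 alternatives, with adjusted p = 3.39e-05 and 1.52e-05 without OHP array 2.

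**Figure D2:**
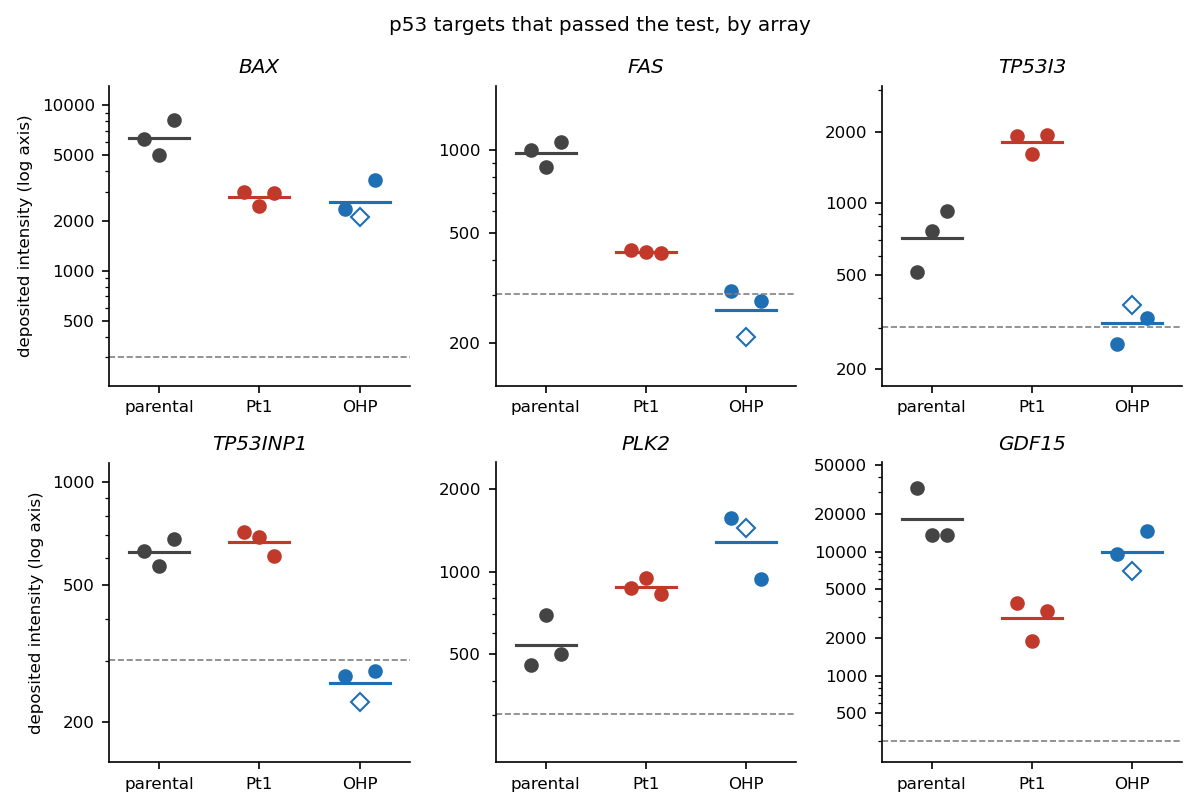
Deposited intensity on a log axis of the 6 p53 targets that passed the test, by line, with 1 point per array, bars at the geometric mean, OHP array 2 as an open diamond and the background ceiling of 302.19 as a dashed line. BAX and FAS lie lower in both resistant lines, TP53I3 is high in Pt1 and low in OHP, TP53INP1 is at background in OHP, PLK2 has its highest mean in OHP and GDF15 is lowest in Pt1.

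AEN and PHLDA3 lay lower in the resistant lines without passing in the fit of all 9 arrays with equal weights and no block. AEN, a nuclease that cuts DNA in apoptosis, read 5854, 8899.6 and 6754 units in parental cells, 3069, 4237 and 4485 in Pt1, and 4083, 4973 and 2789 in OHP. All arrays of both resistant lines were below all parental arrays, at -0.88 ± 0.26 in Pt1 (adjusted p = 0.0706) and -0.90 ± 0.26 in OHP (adjusted p = 0.0969). It passed in both without OHP array 2, at adjusted p = 0.00776 and 0.00701, with -1.09 ± 0.24 in OHP. PHLDA3, which keeps the survival kinase AKT off the membrane, stood at -0.62 ± 0.19 in Pt1 (adjusted p = 0.0719, and 0.0187 without OHP array 2). In OHP it stood at -0.31 ± 0.19 (adjusted p = 0.522). Of the remaining genes of cell death, the junction protein PERP read 1134 to 2234 units and the sushi domain gene SUSD6 read 779.9 to 1102, with overlapping lines on all arrays. SPATA18, which acts in the clearance of damaged mitochondria, was at background, at 175 to 211.

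PLK2 was the gene of cell cycle arrest that passed, and it was higher in OHP. PLK2 is a polo-like kinase of early cell cycle and centrosome control, and its window above holds 1 half-site. Its arrays 1 to 3 read 458, 695 and 502 units in parental cells, 873, 946 and 830.0 in Pt1, and 1565, 1440.1 and 939 in OHP. Both resistant lines lay wholly above parental cells and overlapped each other. PLK2 rose by 1.41 ± 0.25 in OHP (adjusted p = 0.0108) and stood at 0.82 ± 0.25 in Pt1 (adjusted p = 0.0784, and 0.0156 without OHP array 2). The difference between OHP and Pt1 was 0.59 ± 0.25 (adjusted p = 0.221). The rise in OHP was 1.32 ± 0.25 without OHP array 2 (adjusted p = 0.00271). It did not pass without parental array 1 or 3 (adjusted p up to 0.0565) nor with only the 2 lines in the fit (0.0656).

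ZMAT3 and CCNG1 depended on OHP array 2, and ZMAT3 also on the probe. ZMAT3, an RNA-binding zinc finger protein, read 5212, 10388 and 8396 units in parental cells, 22674, 18978 and 24730.4 in Pt1, and 13591, 46153 and 12684 in OHP. All arrays of both resistant lines were above all parental arrays. Its value was 1.53 ± 0.46 in Pt1 (adjusted p = 0.0737) and 1.39 ± 0.46 in OHP (adjusted p = 0.146). Without OHP array 2 it passed in both, at 1.53 ± 0.22 (adjusted p = 0.000201) and 0.78 ± 0.25 (adjusted p = 0.0486). Its other probes, both above the ceiling on every parental and Pt1 array, pointed the other way, at -0.41 and -1.19 in Pt1 and -0.55 and -0.88 in OHP, so the direction of ZMAT3 is not settled. CCNG1, cyclin G1, which brings a phosphatase to MDM2, read 7127, 6851 and 8549 units in parental cells, 5192, 5179 and 4869 in Pt1, and 7092, 1731 and 8407 in OHP. OHP array 2 lay far below every other array. With it at equal weight, CCNG1 passed in no comparison. Without it, CCNG1 was lower in Pt1 than in parental cells, at -0.57 ± 0.15 (adjusted p = 0.0147), and higher in OHP than in Pt1, at 0.61 ± 0.17 (adjusted p = 0.0323), where the value with it was -0.13 ± 0.50.

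GADD45A, a growth arrest protein that was among the earliest p53 targets described, read 12858, 9467 and 6617 units in parental cells, 7485, 9621 and 9919.8 in Pt1, and 13581, 12072 and 12271 in OHP. The OHP arrays lay above the Pt1 arrays, while parental cells overlapped both. It did not pass against parental cells, at -0.06 ± 0.24 in Pt1 (adjusted p = 0.938) and 0.44 ± 0.24 in OHP (adjusted p = 0.441). Its second probe stood at 0.08 and 0.43. PPM1D, a phosphatase that shuts the p53 response down, read 563 to 1588 units with overlapping lines, and the kinase PLK3 stayed at background, at 221 to 266.

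**Figure D3:**
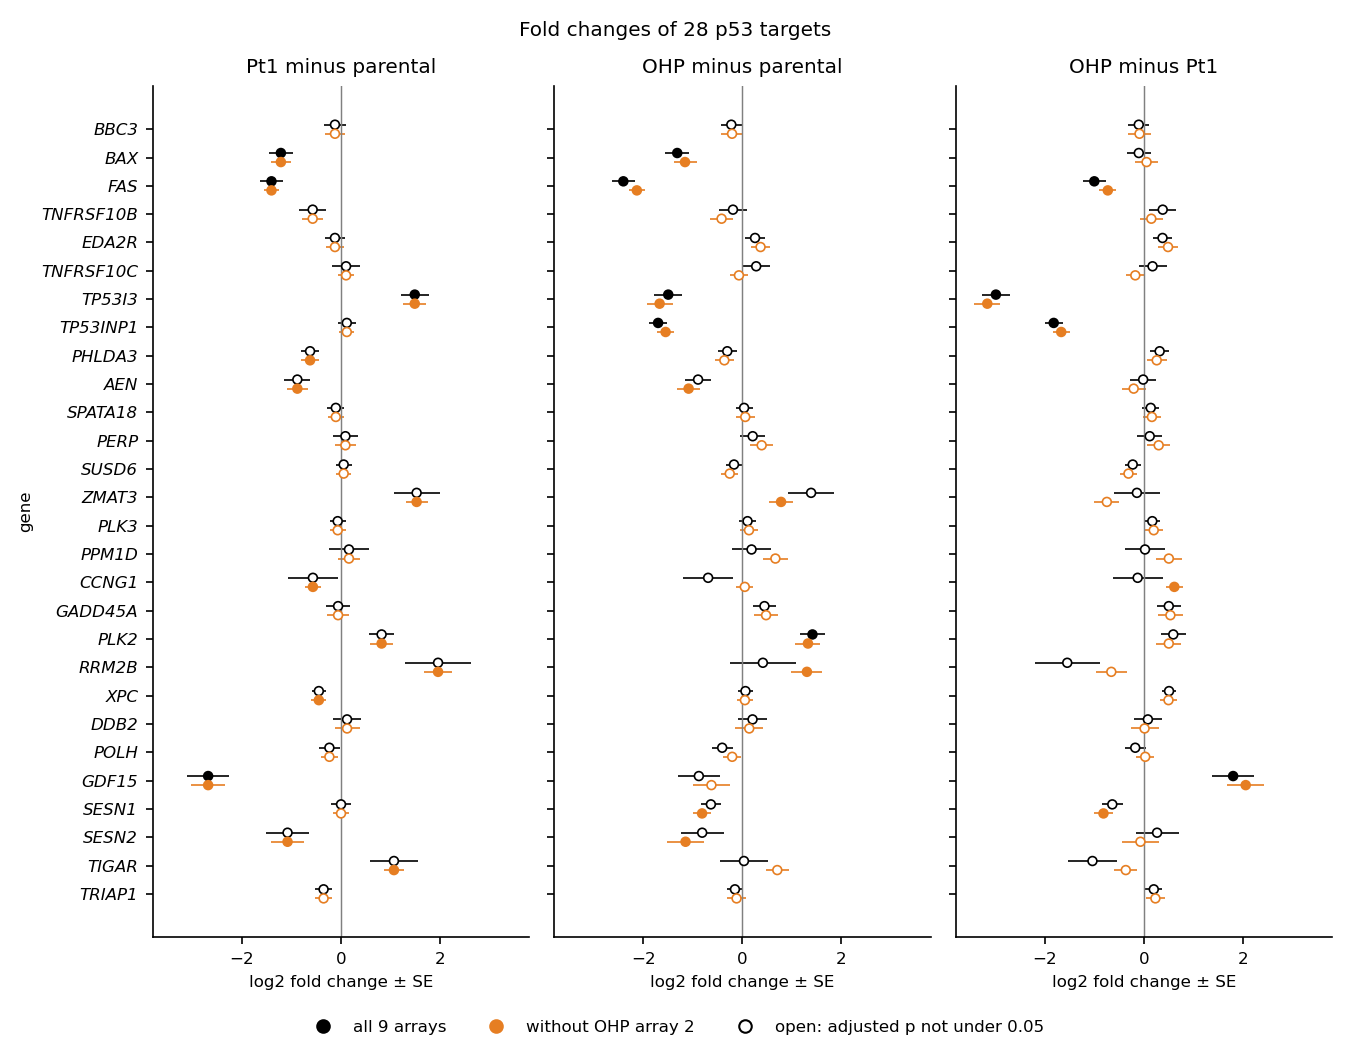
Log2 fold changes of 28 p53 targets with their SE in 3 comparisons, black with all 9 arrays and orange without OHP array 2, filled where the adjusted p is under 0.05. More points are filled without OHP array 2, and the values of CCNG1, RRM2B and TIGAR in OHP shift to the right without it.

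In the fit of all 9 arrays with equal weights and no block, no DNA repair gene passed. RRM2B, a subunit of the ribonucleotide reductase that supplies nucleotides for repair, read 404, 283 and 463 units in parental cells, 1444, 1087 and 1029 in Pt1, and 576, 203 and 1064 in OHP. The Pt1 arrays lay above the parental arrays, while the OHP arrays ran from background to the Pt1 level. RRM2B stood at 1.96 ± 0.66 in Pt1 (adjusted p = 0.103) and 0.41 ± 0.66 in OHP (adjusted p = 0.859). Without OHP array 2 it passed in both, at 1.96 ± 0.28 (adjusted p = 0.000167) and 1.30 ± 0.31 (adjusted p = 0.012). With all 9 arrays and replicate number as a block the Pt1 value also passed (adjusted p = 0.041). Its other probe, above the ceiling on all 9 arrays, was the brighter one in parental cells, with a geometric mean of 494 against 376 units. That probe stood at -0.25 in Pt1 and -0.37 in OHP, so the probes disagree.

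XPC, which finds distorted DNA for nucleotide excision repair, read 11366, 11444 and 12505 units in parental cells, 9123, 8103 and 8769 in Pt1, and 10977, 12456 and 13499 in OHP. Pt1 lay below both other lines, at -0.45 ± 0.15 against parental cells (adjusted p = 0.097, and 0.0428 without OHP array 2). OHP was 0.51 ± 0.15 above Pt1 (adjusted p = 0.0724, and 0.0768 without OHP array 2). With no background correction XPC passed in both comparisons, at -0.44 (adjusted p = 0.032) and 0.50 (adjusted p = 0.0234). DDB2, which recognises ultraviolet damage in the same pathway and holds the full p53 site shown above, read 314, 372 and 466 units in parental cells, 333, 352 and 570.0 in Pt1, and 416, 452 and 395 in OHP. Its lines overlapped, at 0.12 ± 0.29 in Pt1 (adjusted p = 0.871) and 0.20 ± 0.29 in OHP (adjusted p = 0.837), close to background. POLH, the polymerase that copies past platinum adducts, lay above the ceiling on 1 of 9 arrays.

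GDF15 fell in Pt1, with OHP between Pt1 and parental cells. GDF15 is a secreted stress cytokine. Its arrays 1 to 3 read 32480.5, 13538 and 13557 units in parental cells, 3839.9, 1921 and 3336 in Pt1, and 9547, 6982 and 14528 in OHP. Pt1 lay below all arrays of both other lines, while OHP overlapped parental cells. GDF15 fell by 2.68 ± 0.42 in Pt1 (adjusted p = 0.00301), under all 18 alternatives, and was higher in OHP than in Pt1 by 1.80 ± 0.42 (adjusted p = 0.0293). Its value in OHP against parental was -0.88 ± 0.42 (adjusted p = 0.356). The difference between OHP and Pt1 was 2.06 ± 0.38 without OHP array 2 (adjusted p = 0.00223). It did not pass without OHP array 1 or 3 or any 1 of the Pt1 arrays (adjusted p up to 0.131).

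The sestrins and TIGAR did not pass in the fit of all 9 arrays with equal weights, but each did so in some comparison without OHP array 2. SESN1 and SESN2 restrain the growth kinase complex mTORC1 and limit oxidants. SESN1 read 1353, 1867 and 1795 units in parental cells, 1503, 1771 and 1706 in Pt1, and 1015, 1379 and 949 in OHP. It was -0.64 ± 0.21 in OHP against parental (adjusted p = 0.136) and, without array 2, -0.82 ± 0.19 (adjusted p = 0.00915). It was also lower than in Pt1 without that array, at -0.82 ± 0.19 (adjusted p = 0.0108). SESN2 stood at -1.08 ± 0.43 in Pt1 (adjusted p = 0.176) and -0.81 ± 0.43 in OHP (adjusted p = 0.433), and passed without OHP array 2 at adjusted p = 0.0268 and 0.0484. Its parental arrays were themselves spread, at 1451, 694 and 522 units. TIGAR, which lowers glycolytic flux by breaking down a fructose bisphosphate, read 1147, 873 and 1510.4 units in parental cells, 2157, 2699 and 2091 in Pt1, and 1797, 518 and 1814 in OHP. All Pt1 arrays were above all parental arrays, at 1.07 ± 0.49 (adjusted p = 0.24, and 0.00163 without OHP array 2). In OHP against parental cells TIGAR stood at 0.03 ± 0.49 (adjusted p = 0.989). Without array 2 that value was 0.70 ± 0.23 and did not pass (adjusted p = 0.0526). TRIAP1, a small mitochondrial protein that counters apoptosis, read 2114 to 3113 units with overlapping lines.

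**Figure D4:**
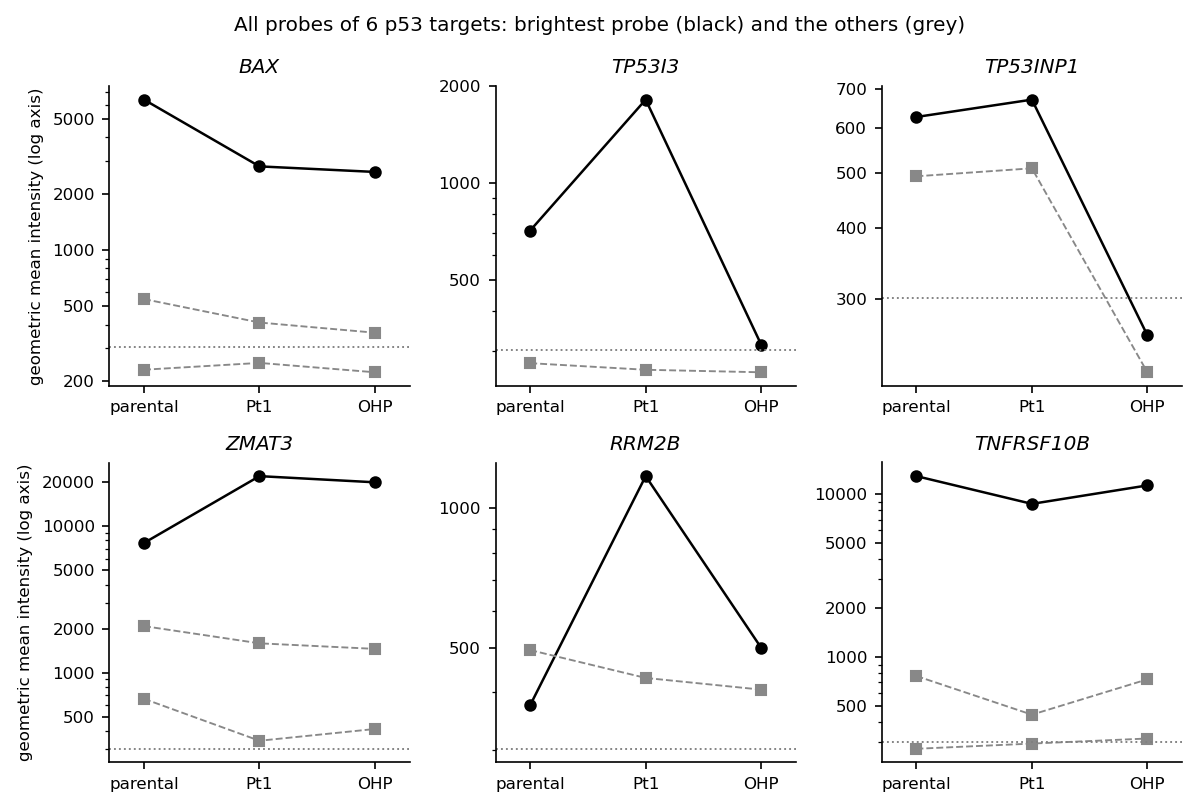
Geometric mean intensity by line, on a log axis, of every probe of 6 p53 targets, with the background ceiling of 302.19 dotted. The probe with the highest mean over all arrays is black and the others are grey. Both TP53INP1 probes lie under the ceiling in OHP, while the ZMAT3 and RRM2B probes part in direction between parental cells and Pt1.

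CDKN1A and MDM2, which the 28 genes leave out, give the setting. CDKN1A read 14142, 16447 and 17626 units in parental cells, 2174, 3259.7 and 2507 in Pt1, and 1293, 999 and 1036 in OHP, 3 separate levels in the same order as FAS. It was lower in OHP than in Pt1 by a log2 difference of -1.32 ± 0.20 (adjusted p = 0.00333), and of -1.24 ± 0.21 without OHP array 2 (adjusted p = 0.0011). MDM2 read 429, 388 and 417 units in parental cells, 383, 349.8 and 327 in Pt1, and 247, 209.5 and 318 in OHP. MDM2 was above the ceiling on all parental and Pt1 arrays but on only 1 OHP array, so the size of its difference in OHP is limited by background. It passed as lower there (adjusted p = 0.036, and 0.014 without OHP array 2) and stood at -0.30 ± 0.23 in Pt1 (adjusted p = 0.54). The BH3-only gene PMAIP1, known as NOXA, overlapped in all lines, at 0.01 ± 0.22 in Pt1 and 0.14 ± 0.22 in OHP (adjusted p = 0.986 and 0.851).

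A list of 45 other p53 targets, of which 44 were measured, contains these 3 genes. In Pt1 2 of 44 rose and 6 fell, with a median of -0.15. In OHP 7 fell and 0 rose, with a median of -0.24. These 7 include MDM2 and, below, CMBL. Only 3 fell in OHP without parental array 1, without parental array 3, or with only the 2 lines in the fit. In those fits 3.33%, 3.13% and 2.55% of all genes passed. Between OHP and Pt1 1 was higher in OHP and 4 were lower, with a median of -0.01. Over all genes 4.15% rose and 5.73% fell in Pt1, and 1.75% rose and 3.67% fell in OHP. Between OHP and Pt1, 3.51% were higher in OHP and 4.07% were lower. DRAM1, a lysosomal protein of autophagy, fell by 1.71 ± 0.23 in Pt1 (adjusted p = 0.00138) and by 1.27 ± 0.23 in OHP (adjusted p = 0.0123). The growth inhibitor BTG1 fell by 1.66 ± 0.28 in Pt1 (adjusted p = 0.00452) and fell by 1.56 ± 0.28 in OHP (adjusted p = 0.00985). LIF, a cytokine, fell by 1.44 ± 0.37 in Pt1 (adjusted p = 0.0371), and the carboxylesterase CES2 fell by 1.13 ± 0.17 there (adjusted p = 0.00257). TGFA, an EGFR ligand, fell by 1.68 ± 0.26 in OHP (adjusted p = 0.00432). When OHP array 2 was left out the OHP values were -1.38 ± 0.23 for DRAM1, -1.27 ± 0.21 for BTG1 and -1.42 ± 0.21 for TGFA (adjusted p = 0.00104, 0.00104 and 0.000342).

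CMBL, like TP53I3, was higher in Pt1 and lower in OHP than in parental cells. CMBL, a hydrolase, read 5699.9, 5132 and 6258 units in parental cells, 11166, 11048 and 13221 in Pt1, and 3677, 2139 and 2955 in OHP. It rose by 1.06 ± 0.21 in Pt1 (adjusted p = 0.0119), fell by 1.02 ± 0.21 in OHP (adjusted p = 0.0239) and was lower in OHP than in Pt1 by a log2 difference of -2.08 ± 0.21 (adjusted p = 0.000266). The OHP values were -0.80 ± 0.18 and -1.87 ± 0.18 when array 2 was left out (adjusted p = 0.00765 and 8.25e-06). KITLG, the ligand of the receptor KIT, was at background on all OHP arrays and at least 1.65-fold lower there than in Pt1 (adjusted p = 0.000319, and 4.25e-05 without OHP array 2). It was also at background on 2 of 3 parental arrays, so no fold is given between OHP and parental cells. Its call there (adjusted p = 0.0391) ended with replicate number as a block (adjusted p = 0.0685). PGPEP1, named after its value was seen, lay above the ceiling on only 1 parental array and on no Pt1 or OHP array. It passed with the block (adjusted p = 0.0432), so 7 other targets passed either way.

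Of 31 regulators of p53, 29 were measured, and 4 passed in Pt1. There 3 rose and 1 fell, with a median of 0.05 (9.88% of all genes passed), while in OHP against parental 0 passed, with a median of 0.07 (5.41% of all genes passed). In OHP 1 passed with replicate number as a block, PPP1R13L, an inhibitor of p53 named after its value was seen (0.88 ± 0.18, adjusted p = 0.0297). CDKN2A, whose locus encodes the MDM2 inhibitor ARF besides the kinase inhibitor p16, read 207, 194 and 188 units in parental cells, 1394, 1392 and 1539 in Pt1, and 219, 205 and 240.0 in OHP. It was at least 4.76-fold higher in Pt1 than in either other line (adjusted p = 8.17e-07 and 1.28e-06). The damage kinase ATR was at least 2.39-fold higher in Pt1 than in either other line (adjusted p = 9.85e-05 and 5.58e-05). TP53BP1, which binds at DNA breaks, rose by 1.30 ± 0.25 in Pt1 (adjusted p = 0.00905) and was lower in OHP than in Pt1 by a log2 difference of -1.14 ± 0.25 (adjusted p = 0.0221). TRIM24, a ubiquitin ligase for p53, fell by 0.61 ± 0.16 in Pt1 (adjusted p = 0.0397) and was higher in OHP than in Pt1 by 0.73 ± 0.16 (adjusted p = 0.0231). Its fall in Pt1 did not pass with replicate number as a block (adjusted p = 0.0649), nor when any 1 parental or Pt1 array was left out. Its difference between OHP and Pt1 did not pass when any 1 Pt1 array or OHP array 3 was left out. In the fit of all arrays 3 regulators were lower in OHP than in Pt1, and TP53BP1 had the highest adjusted p of these. Only 2 regulators passed as lower there when any 1 Pt1 array or OHP array 1 was left out. The differences of CDKN2A, ATR, TP53BP1 and TRIM24 between OHP and Pt1 also passed without OHP array 2 (adjusted p = 1.22e-08, 2.21e-06, 0.0128 and 0.0141). When OHP array 2 was left out, 10 of 29 regulators passed in Pt1 and 4 in OHP, and 16 and 15 of the 44 other targets, where 25.9% and 16.7% of all genes passed.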

How the data were processed

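Total RNA from 9 cell samples, described as independent biological replicates, 3 of each line, was measured. The authors deposited linear intensity values of 48803 probes, made with BeadStudio (version not given) per the submitters' processing notes. From the deposited values, sorted columns differed by at most 1.09%, so they had been quantile normalized, and no background had been subtracted. A further 9 signal columns could not be paired with samples through the labels and are not used here, so the slide could not be tested as a batch.

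Symbols came from the platform annotation (28098 probes with 1 symbol, 13 with several, 20692 with none), updated through gene IDs. The values were corrected in limma 3.58.1 (R 4.3.3) with normexp and offset 50, and log2 was taken. lmFit and eBayes were run on all 9 arrays (6 residual and 3.47 prior degrees of freedom), without a filter, and adjusted p-values are Benjamini-Hochberg, 2-sided. The fit was tested on simulated data with independent normal noise and no outlying array. That test does not show how an array such as OHP array 2 affects the calls. Where every array of 1 line was at background, the fold is a bound, the other line's geometric mean of deposited intensities over the ceiling. Plots were drawn with matplotlib 3.10.9 under Python 3.11.15.

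Values by array are given for genes that passed in any comparison and for BAX, BBC3, XPC, DDB2 and GADD45A, and, added after the values were seen, for genes with disagreeing arrays or probes. Of the other lists, CDKN1A, MDM2, PMAIP1 and up to 5 genes per comparison with the largest change are named. Members and lists were chosen with earlier results of these data known. Same-numbered arrays of OHP and parental deviated together from their line means (correlations 0.126, 0.671 and 0.502 over genes). For that comparison the numbers may therefore be pairs, although the labels do not say so. The 3 correlations are not independent, because the deviations of a line cancel over its 3 arrays, so they cannot establish pairs. Printed values come from the fit without the block, and adding it changed no call of the 28 genes between OHP and parental. With 3 arrays a line, their number limits precision.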

Additional observations from a re-analysis of the deposited data

How the results depend on the processing

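The 84 fold changes of the 28 genes were recomputed under 18 alternatives, giving 1497 values. Of these, 1361 kept their direction and their side of the threshold, 26 lost a call, 53 gained one, and 56 changed sign without a call in either setting. In 1 value a call reversed the sign, CCNG1 in OHP against Pt1 without OHP array 2, at 0.61 (adjusted p = 0.0323), in a range of -0.56 to 0.61 over the arrays left out.

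Leaving out 1 array at a time, the number of the 28 genes that passed ran from 3 to 13 in Pt1, 2 to 10 in OHP, 2 to 6 between OHP and Pt1, and 4 to 15 in the F-test. It ran from 5 to 16, 3 to 15 and 4 to 9 for the other targets in the 3 comparisons, and from 3 to 10, 0 to 4 and 2 to 4 for the regulators. The share of all genes that passed moved over the same fits, from 5.51 to 25.9%, 3.13 to 16.7% and 3.89 to 12.2%. With only genes above the ceiling on all 3 arrays of a line, no count of the 28, the other targets or the regulators changed. The share of all genes in that fit that passed was higher, at 17.3%, 9.3% and 13.5% in the 3 comparisons. With the mean of all probes of a gene 2 of the 28 passed in Pt1 (9.78% of all genes). With only the 2 lines compared in the fit, 13 of the 28, 17 other targets and 9 regulators passed in Pt1 (25.9% of all genes), and 2 of the 28 and 3 other targets in OHP (2.55%). With array weights, 13 of the 28, 15 other targets and 9 regulators passed in Pt1, 9, 12 and 5 in OHP, and 11, 13 and 8 between OHP and Pt1, where 25.9%, 17.9% and 24.3% of all genes passed, and 16 of the 28 passed the F-test. CCNG1, SESN2, TIGAR, RRM2B and XPC passed in Pt1 with these weights (adjusted p = 0.0442, 0.0173, 0.00403, 0.000306 and 0.0246), and SESN1 and SESN2 in OHP (0.00691 and 0.0235). The weight of OHP array 2 was 0.111, against 0.590 to 3.40 for the other 8 arrays.

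With replicate number as a block 7 of the 28 passed in Pt1 (11.1% of all genes), with ZMAT3, RRM2B and AEN added (adjusted p = 0.0453, 0.041 and 0.0469), where same-numbered arrays share only a number (correlations 0.182, 0.045 and -0.004). In OHP against parental the block let 1 regulator pass. Signal over background limits the genes at or near the ceiling, and the cause of these shifts was not tested.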
